A study of Mus musculus with 19 samples.

Results

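The liver makes most of the complement and coagulation proteins of blood plasma, and 38 mouse genes of these systems were followed in fasted and re-fed livers treated with an antisense oligonucleotide against Plin5. The genes were taken by symbol from a list of names. There were 17 complement genes and 21 genes of coagulation, fibrinolysis and their inhibitors. All 38 were found among the 24421 gene symbols with read counts, and all 38 were among the 13293 genes that passed the filter on low counts.

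Total RNA of mouse liver was sequenced in 19 libraries. The mice ate a purified normal diet and were given 2 injections in each of 3 weeks of an antisense oligonucleotide (ASO). Such oligonucleotides pair with an RNA and lower its amount. The active ASO was directed against Plin5, the gene of the lipid droplet protein perilipin 5, and the other was a control ASO. All mice were fasted overnight, and those called re-fed then had food for 4 h before the liver was taken. The groups were re-fed PLIN5 ASO (5 libraries), re-fed control ASO (5), fasted PLIN5 ASO (5) and fasted control ASO (4 libraries, whose labels carry the numbers 1, 3, 4 and 5). The labels name 1 oligonucleotide against Plin5, so lower Plin5 and any effect of that oligonucleotide on other RNAs cannot be told apart. The sources used here give no strain, sex or age. Nor do the labels say whether each library is a separate animal, so p-values measure the spread between these libraries.

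Complement is a set of plasma proteins that is set off on antibody (the classical route), on microbial sugars (the lectin route) or by slow turnover of C3 (the alternative route). All routes build convertases that cleave C3 and C5, and the terminal proteins then assemble a pore in the target membrane. Coagulation is a chain of proteases that ends in thrombin, which cuts fibrinogen into the fibrin of a clot. Plasmin dissolves the clot and anticoagulant proteins hold the chain back. Hepatocytes secrete nearly all of these proteins, and several of them, fibrinogen and C3 among them, are acute phase proteins whose synthesis rises in inflammation.

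Total counts ran from 24942147 to 66862784 per library, the highest in re-fed PLIN5 ASO 5 and the next at 33949977. Plin5 RNA did not overlap between the ASO groups and was lower with PLIN5 ASO, at a log2 fold change of -2.28 in re-fed liver (adjusted p = 0.00119) and -2.01 in fasted liver (adjusted p = 0.00257, edgeR's quasi-likelihood test with Benjamini-Hochberg adjustment). Hepatocyte markers summed to between 99840 and 169700 CPM (read counts scaled to library size) in every library. The clock gene Arntl set 4 libraries apart, called clock-shifted from here on: they are libraries 3 and 5 of re-fed control ASO (23.8 and 45 CPM of Arntl) and fasted PLIN5 ASO 3 and 5 (14.6 and 15 CPM), while the 15 remaining libraries held 0.566 to 4.87 CPM. Fasted control ASO 3 and 4 were the closest of all 36 pairs that share a group (chi-square per degree of freedom 3.28, against 19.5 for the next pair), and results are also given with these libraries counted as 1 sample where that ends a call of one of the 38 genes, and by name for other genes. Fewer cells of a type and less RNA per cell cannot be told apart in RNA of whole liver.

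Together the 38 genes held 3.84% to 5.69% of all counts of a library. Levels between genes are compared as the deposited FPKM (fragments per kilobase of transcript, scaled to the mapped fragments), which takes transcript length into account. Fibrinogen stood highest: the median over 19 libraries was 2639.6 FPKM for Fgb and 2420.3 FPKM for Fgg, the beta and gamma chains. Vtn, the gene of the adhesion protein vitronectin, had a median level of 1718 FPKM. Fga, the alpha chain of fibrinogen, had one of 1477 FPKM. Kng1, the gene of kininogen, followed at 1297 FPKM and C3, the protein on which all complement routes meet, at 1152 FPKM. These 6 were the highest, but neighbours in this order overlapped in their ranges over libraries. Plg (plasminogen), Serpinc1 (antithrombin) and F2 (prothrombin) had medians of 1105, 1082 and 991 FPKM. The lowest medians were those of Pros1 (15.5 FPKM), the gene of the anticoagulant protein S, and of Masp1 (19.8 FPKM), which encodes a protease of the lectin route. C2, a protease that forms part of the classical and lectin C3 convertase, came next in order from below, at 39.6 FPKM. C6, which encodes an early member of the membrane pore, had the widest range: 49.2 to 236 FPKM, a ratio of 4.79. F12, the gene of the contact factor XII, had the narrowest, 305 to 363 FPKM, a ratio of 1.19.

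**Figure D1:**
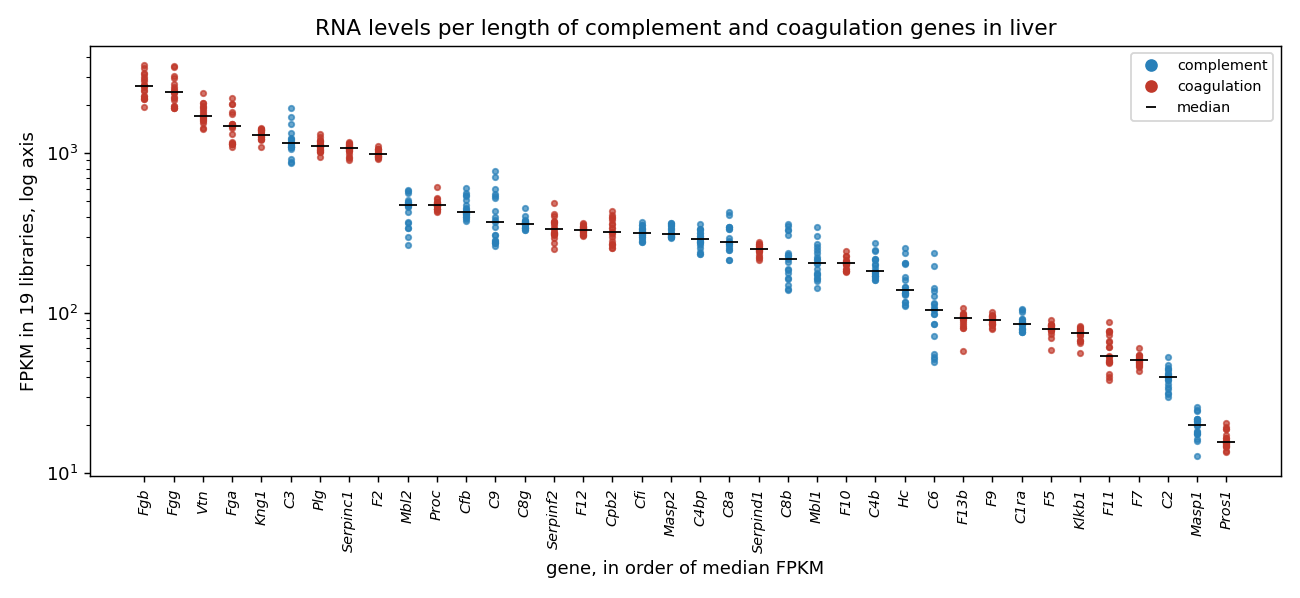
Deposited FPKM of the 38 genes (vertical axis, log scale) in each of the 19 libraries, in order of the median (black dash), with complement genes in blue and genes of coagulation and fibrinolysis in red. Medians run from 2640 FPKM for Fgb to 15.5 FPKM for Pros1, and C6, C9 and C8b spread more widely than their neighbours.

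The 3 fibrinogen genes are shown with the sequence before their start, because they lie in 1 cluster on chromosome 3. The ratios of their levels are given below. The cluster holds Fgg, Fga and Fgb in this order, with gaps of 11026 bases between Fgg and Fga and 6513 bases between Fga and Fgb (GRCm38). The windows end at the gene start in the RefSeq table for GRCm38.p6, except that of Fga, where the last 77 bases are left out because the GENCODE gene model already covers them. Capitals mark matches to the spaced palindrome TTCNNNGAA, which STAT factors can bind, to CTGGGAA, the core of interleukin-6 response elements described in rat fibrinogen genes, and to TTGCNNAA, a form of the C/EBP site, each searched on both strands. The window of Fga is chr3:83025903-83026075 on the plus strand, that of Fgb chr3:83049864-83050113 on the minus strand and that of Fgg chr3:83007474-83007723 on the plus strand.
Fga: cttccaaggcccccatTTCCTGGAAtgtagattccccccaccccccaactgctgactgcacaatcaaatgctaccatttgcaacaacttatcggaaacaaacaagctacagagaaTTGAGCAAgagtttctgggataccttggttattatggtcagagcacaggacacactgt
Fgb: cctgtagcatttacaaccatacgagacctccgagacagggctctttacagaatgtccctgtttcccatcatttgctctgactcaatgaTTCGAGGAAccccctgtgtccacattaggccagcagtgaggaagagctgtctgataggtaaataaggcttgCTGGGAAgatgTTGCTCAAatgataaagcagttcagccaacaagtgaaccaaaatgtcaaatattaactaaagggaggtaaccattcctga
Fgg: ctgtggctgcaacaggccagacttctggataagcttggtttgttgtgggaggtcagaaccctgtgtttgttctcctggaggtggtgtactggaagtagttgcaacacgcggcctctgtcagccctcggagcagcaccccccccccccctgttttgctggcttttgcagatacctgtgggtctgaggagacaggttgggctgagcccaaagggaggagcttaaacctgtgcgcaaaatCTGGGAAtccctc
The Fga window held TTCNNNGAA at 234 and TTGCNNAA at 135 bases before the RefSeq start. The Fgb window held TTCNNNGAA at 162, CTGGGAA at 91 and TTGCNNAA at 80 bases before it, and the Fgg window CTGGGAA at 13 bases before it. The matches do not overlap one another. Such matches are common: in 250 bases before the start, CTGGGAA was in 9.10% of all 32851 windows, TTCNNNGAA in 7.02% and TTGCNNAA in 9.56%. Of the 38 genes 30 had a window, of which 5 held CTGGGAA, 6 TTCNNNGAA and 7 TTGCNNAA. CACGTG, the E-box that clock activators can bind, was in 0 of the 30 and in 6.02% of all windows. A match is a run of letters, not a measured site.

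The fibrinogen chains kept ratios of limited range, and that of Fga to Fgb was not the same in all groups. In re-fed liver the Fgb level was 3822, 3553, 3959.7, 4080.0 and 4319 CPM in PLIN5 ASO libraries 1 to 5, against 3947, 2878, 4884, 4112 and 5328 CPM in control ASO libraries 1 to 5. In fasted liver it was 4827, 3612, 5051, 3389 and 4900.0 CPM in PLIN5 ASO libraries 1 to 5, against 3859, 3429, 3436 and 4579 CPM in control ASO libraries 1, 3, 4 and 5. The highest values of their groups came from re-fed control ASO 3 and 5 and fasted PLIN5 ASO 1, 3 and 5, and the groups overlapped. The Fga level was 0.483 to 0.650 of the Fgb level in FPKM over the 19 libraries, and the Fgg level 0.833 to 1.01 of it. With control ASO the Fga to Fgb ratio was 0.560 to 0.650 in re-fed liver and 0.505 to 0.542 in fasted liver, without overlap. With PLIN5 ASO it was 0.483 to 0.624 in re-fed liver and 0.504 to 0.591 in fasted liver. A change of the ratio with feeding was not tested. Fga, Fgb and Fgg together took 0.916% to 1.72% of a library's counts, with both ends of that range in re-fed control ASO.

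The unevenness between libraries of a group was shared by most of the 38 genes. In fasted PLIN5 ASO liver, libraries 1, 3 and 5 were the 3 highest for 26 of 38 genes (68.4%), against 17.7% of all genes tested. The acute phase gene Saa1, which encodes serum amyloid A, also stood highest in these 3, at 4170.1, 4860.2 and 2174 CPM, against 40.6 and 121 CPM in libraries 2 and 4. In re-fed control ASO liver, libraries 3 and 5 were the 2 highest for 24 of 38 genes (63.2%), against 19.8% of all genes, and their Saa1 levels of 469.8 and 391 CPM stood against 66.7 to 86.1 CPM in libraries 1, 2 and 4. Both orders were seen for 22 of 38 genes (57.9%), against 7.74% of all genes. The genes of a library share its RNA and depth, so these shares describe the libraries and are not independent results. Of the 5 libraries, 4 are the clock-shifted ones, and fasted PLIN5 ASO 1 is not. What clock phase or inflammation contributed to these orders was not tested.

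**Figure D2:**
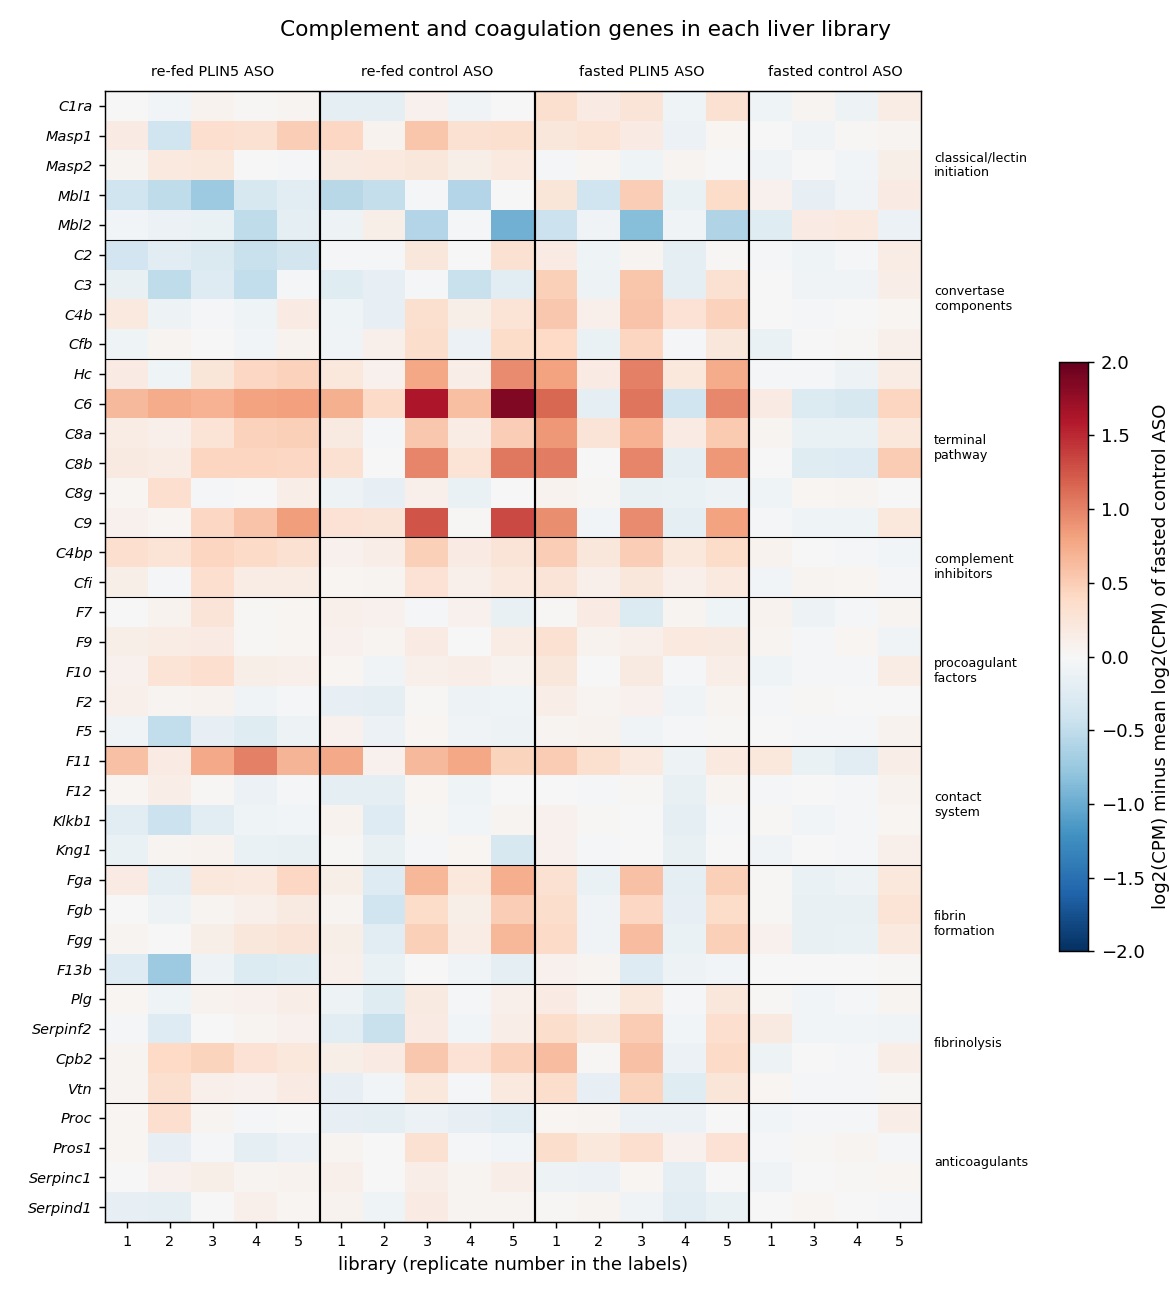
Level of each of the 38 genes (vertical axis, grouped by role) in each of the 19 libraries (horizontal axis, by group and replicate number) as log2 of CPM minus the mean of log2 CPM in fasted control ASO; red is higher and blue lower. Fasted PLIN5 ASO 1, 3 and 5 and re-fed control ASO 3 and 5 are red for Hc, C6, C8a, C8b, C9 and the fibrinogen genes, and C6 is the strongest.

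The spread was wide in the terminal pathway. C6 had CPM levels of 301, 323, 312, 338 and 339 in re-fed PLIN5 ASO libraries, against 315, 252, 590.2, 294 and 698 in re-fed control ASO libraries. In fasted liver its CPM levels were 428, 167, 406, 147 and 376 in PLIN5 ASO libraries, against 215, 160.0, 155 and 258 in control ASO libraries 1, 3, 4 and 5. Its coefficient of variation was 5.18% in re-fed PLIN5 ASO, 46.7% in re-fed control ASO, 44.7% in fasted PLIN5 ASO and 25% in fasted control ASO. C9, whose protein lines the membrane pore in many copies, had CPM levels of 597, 581, 750.4, 836 and 1008 in re-fed PLIN5 ASO libraries, against 688, 675, 1351, 572 and 1408 in re-fed control ASO libraries. In fasted liver its CPM levels were 1082, 546, 1094, 496 and 987 in PLIN5 ASO libraries, against 551, 534, 530.3 and 655 in control ASO libraries 1, 3, 4 and 5. In fasted PLIN5 ASO liver the values of both genes thus lay in a high set (1, 3 and 5) and a low set near most controls (2 and 4). Hc, the gene of C5, held 796, 670.1, 844, 951 and 976 CPM in re-fed PLIN5 ASO libraries, against 825, 751, 1213, 776 and 1370.5 CPM in libraries of re-fed control ASO. In fasted liver it held 1239.7, 793, 1429, 819 and 1188 CPM in PLIN5 ASO libraries, against 696, 696, 665 and 789 CPM in control ASO libraries 1, 3, 4 and 5. C8b was split in the same way. Hc had the same high set, but its libraries 2 and 4 (793 and 819 CPM) lay above every fasted control library. C8g, which encodes the gamma chain of C8, spread little (coefficients of variation of 4.48% to 10.6%). Over the 38 genes the median coefficient of variation was 8.70% in re-fed PLIN5 ASO, 11.3% in re-fed control ASO, 10.7% in fasted PLIN5 ASO and 6% in fasted control ASO. For all genes of at least 30 CPM, a set not matched to the members by level, it was 9.82%, 9.96%, 9.42% and 6.30% in the same groups. For all genes tested it was 14.7%, 15.6%, 14.6% and 11.1%. The low values of fasted control ASO come from 4 libraries, of which 3 and 4 were the closest pair of all. What that pair did to the spread was not tested.

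**Figure D3:**
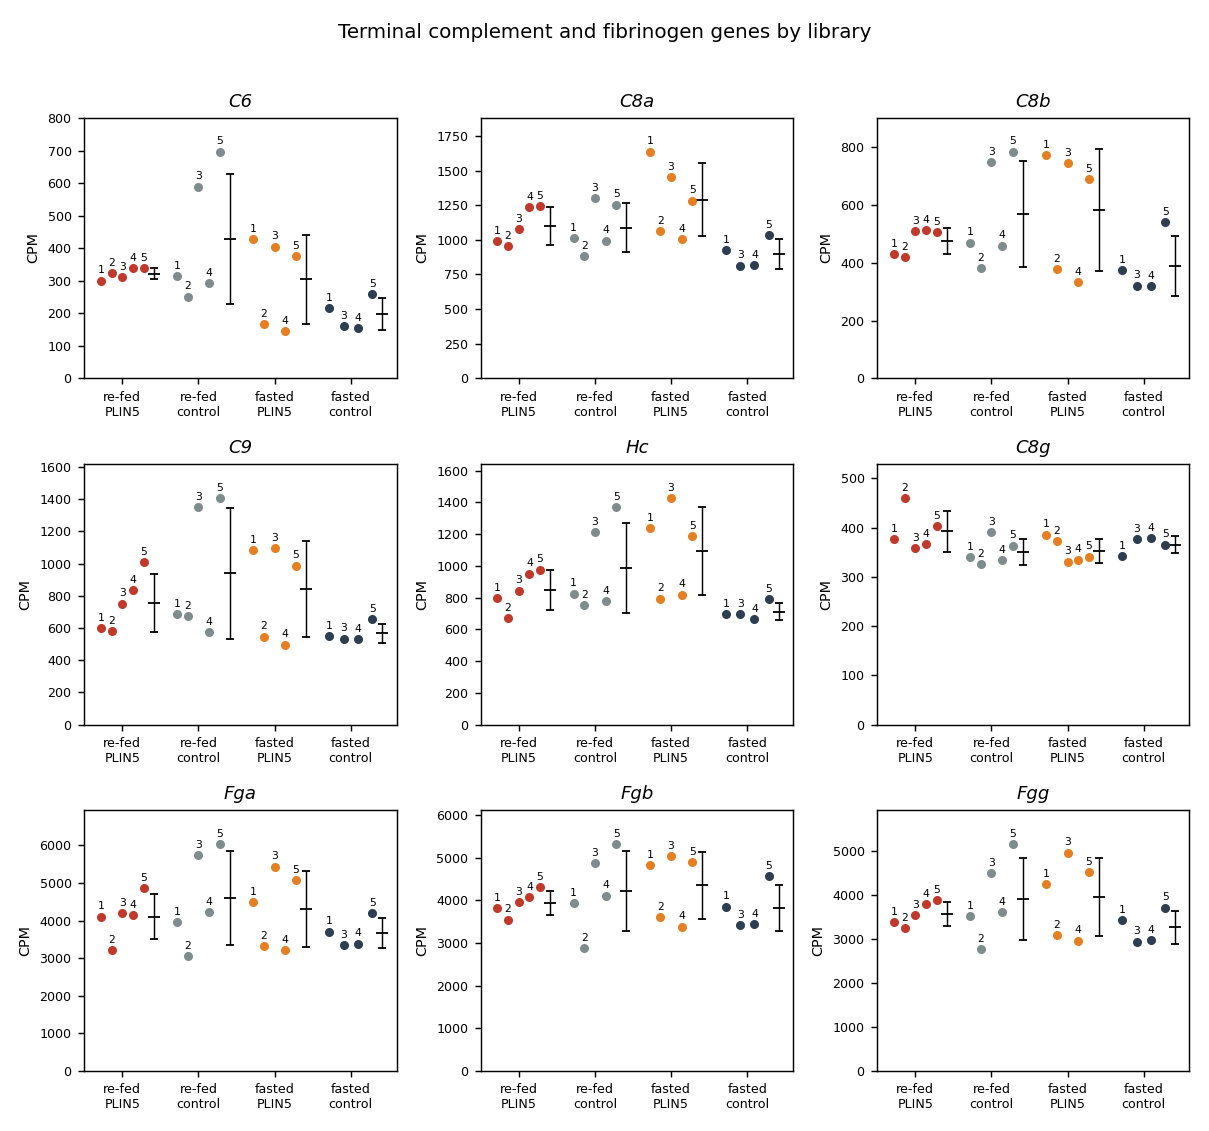
CPM (vertical axes, from 0) of 6 terminal pathway genes and the 3 fibrinogen genes in each library, with replicate numbers; the bar to the right of each group is the mean with its SD (n = 5, and n = 4 in fasted control ASO). In C6, C8b and C9, fasted PLIN5 ASO 1, 3 and 5 and re-fed control ASO 3 and 5 lie far above the rest of their groups, while C8g is even.

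C4bp was the 1 gene of 38 that changed with PLIN5 ASO in fasted liver, and it was higher. It encodes a plasma inhibitor of the classical C3 convertase. Among all genes tested 1.17% were called, 0.602% as higher and 0.572% as lower. C4bp held 659, 548, 663, 542 and 606 CPM in fasted PLIN5 ASO 1 to 5, against 493, 471, 461 and 454 CPM in fasted control ASO 1, 3, 4 and 5. Every PLIN5 ASO library was above every control library. C4bp rose to 604 ± 58.2 CPM with PLIN5 ASO (SD, n = 5), against 469.8 ± 17 CPM with control ASO (SD, n = 4). The log2 fold change was 0.36 with an SE of 0.085 and an adjusted p of 0.0398 (edgeR's quasi-likelihood test, 95% confidence interval 0.18 to 0.54). The call was kept in 9 of 19 fits that left out 1 library, and it was lost, leaving 0 of 38, without fasted PLIN5 ASO 1, 3 or 5, re-fed PLIN5 ASO 1, 4 or 5, or any 1 of the 4 fasted control libraries (adjusted p of 0.0502 to 0.142). Without fasted PLIN5 ASO 2 there were 2 calls, C4b and C4bp. With fasted control ASO 3 and 4 as 1 sample the adjusted p was 0.11, and it was 0.0813 with the clock-shifted libraries left out.

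Other complement genes lay higher in fasted PLIN5 ASO liver without passing the threshold. C4b, the classical pathway protein that C4bp binds, held 1488, 1095, 1509, 1248 and 1405 CPM in PLIN5 ASO libraries, against 1022, 1003, 1010.0 and 1046 CPM in control libraries, again without overlap (log2 fold change 0.40, SE 0.11, adjusted p = 0.0892). Its near-identical neighbour C4a may share reads with it. C8a, the alpha chain of C8, held 1637, 1064, 1453, 1006 and 1284 CPM, against 927, 814, 816 and 1035 CPM (log2 fold change 0.52, SE 0.15, adjusted p = 0.0918), with PLIN5 ASO 4 below control 5. The log2 fold changes of Hc (0.62, SE 0.19, adjusted p = 0.124), C6 (0.63, SE 0.32, adjusted p = 0.375), C8b (0.59, SE 0.25, adjusted p = 0.279) and C9 (0.57, SE 0.28, adjusted p = 0.357) were larger but less certain. The median log2 fold change of the 6 terminal pathway genes was 0.58. Convertase genes were spread: the log2 fold change was 0.24, SE 0.14, adjusted p = 0.469 for C3, 0.19, SE 0.12, adjusted p = 0.49 for Cfb, the factor B of the alternative route, and -0.01, SE 0.087, adjusted p = 0.984 for C2. The recognition proteins of the lectin route differed in sign, with Mbl1 at 0.15 (adjusted p = 0.74) and Mbl2 at -0.38 (adjusted p = 0.358).

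On the coagulation side 0 of 21 genes passed the threshold in fasted liver, and 4 had an unadjusted p under 0.05, all 4 higher. DESeq2 called 4 of the 38 genes in this comparison, all of them complement genes, but also more of all genes (432, against 156 in edgeR). Pros1 had the smallest adjusted p among coagulation genes: it held 66.7, 60, 65.5, 55.2 and 63.3 CPM in PLIN5 ASO libraries, against 50.6, 53, 53.9 and 50.7 CPM in control libraries, without overlap (log2 fold change 0.26, SE 0.078, adjusted p = 0.116). F9, the gene of the antihemophilic factor IX, did not overlap either (0.17, SE 0.063, adjusted p = 0.189). Cpb2, the gene of a carboxypeptidase that slows clot lysis, was at 0.33, SE 0.14, adjusted p = 0.264, and Serpinf2, the gene of the plasmin inhibitor alpha-2-antiplasmin, at 0.28, SE 0.12, adjusted p = 0.282. The fibrinogen genes were at 0.24 for Fga, 0.19 for Fgb and 0.28 for Fgg (adjusted p of 0.464 to 0.627). Factors VII, X and II and the contact factors F12, Klkb1 and Kng1 lay between -0.02 and 0.10. An unadjusted p under 0.05 was reached by 11 of 38 genes, all 11 higher, against 15.1% of all genes. In all, 26 of 38 genes had a positive log2 fold change, against 52.0% of all genes, with a median of 0.16, against 0.01 over all genes. Without overlap between groups 6 of 38 genes were higher (Pros1, Hc, C4b, Cfi, F9 and C4bp), against 2.87% of all genes, and 0 lower, against 4.26%. Without the clock-shifted libraries the median was 0.07 and 0 of 38 genes passed.

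Of the marker lists of other liver cells, those of 2 kinds held genes called higher in this comparison, and that of endothelial cells held none. All 12 Kupffer cell and macrophage markers had a positive log2 fold change and 2 of them, C1qa and C1qb, passed. Their summed level was 172 to 447.7 CPM in fasted PLIN5 ASO, against 150.6 to 180.7 CPM in fasted control ASO. All 10 stellate cell and fibroblast markers were positive and 3 passed (Col1a2, Col3a1 and Lum), with sums of 174.2 to 268.7 CPM in fasted PLIN5 ASO, against 135.3 to 172.1 CPM in fasted control ASO. These 5 marker calls were lost without the clock-shifted libraries, with fasted control ASO 3 and 4 as 1 sample, without fasted PLIN5 ASO 3, 4 or 5 and without any 1 fasted control library (adjusted p up to 0.202 for C1qa). Of 10 liver endothelial markers 7 had a negative log2 fold change (median -0.16) and 0 were called, with 2 lower and 1 higher at an unadjusted p under 0.05, and Kdr and Oit3 were lower without overlap. Their sums were 103.7 to 152.4 CPM in fasted PLIN5 ASO, against 115.4 to 151.9 CPM in fasted control ASO. Of 5 cholangiocyte markers 4 were positive (median 0.27) and 0 called, with 1 higher at an unadjusted p under 0.05. Those markers summed to 37.15 to 68.24 CPM in fasted PLIN5 ASO, against 36.22 to 42.06 CPM in fasted control ASO. Of the tested neutrophil and monocyte markers 3 of 4 were positive, and of the lymphocyte markers 3 of 5, with 0 called. Hepatocyte markers summed to 109800 to 142800 CPM in fasted PLIN5 ASO and 110400 to 129100 CPM in fasted control ASO, with 0 of 10 called (2 at an unadjusted p under 0.05). No marker of the hepatocyte, Kupffer cell, stellate cell, endothelial and cholangiocyte lists was at 0 in every library. The part of other cells in the levels of the 38 genes was not tested.

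**Figure D4:**
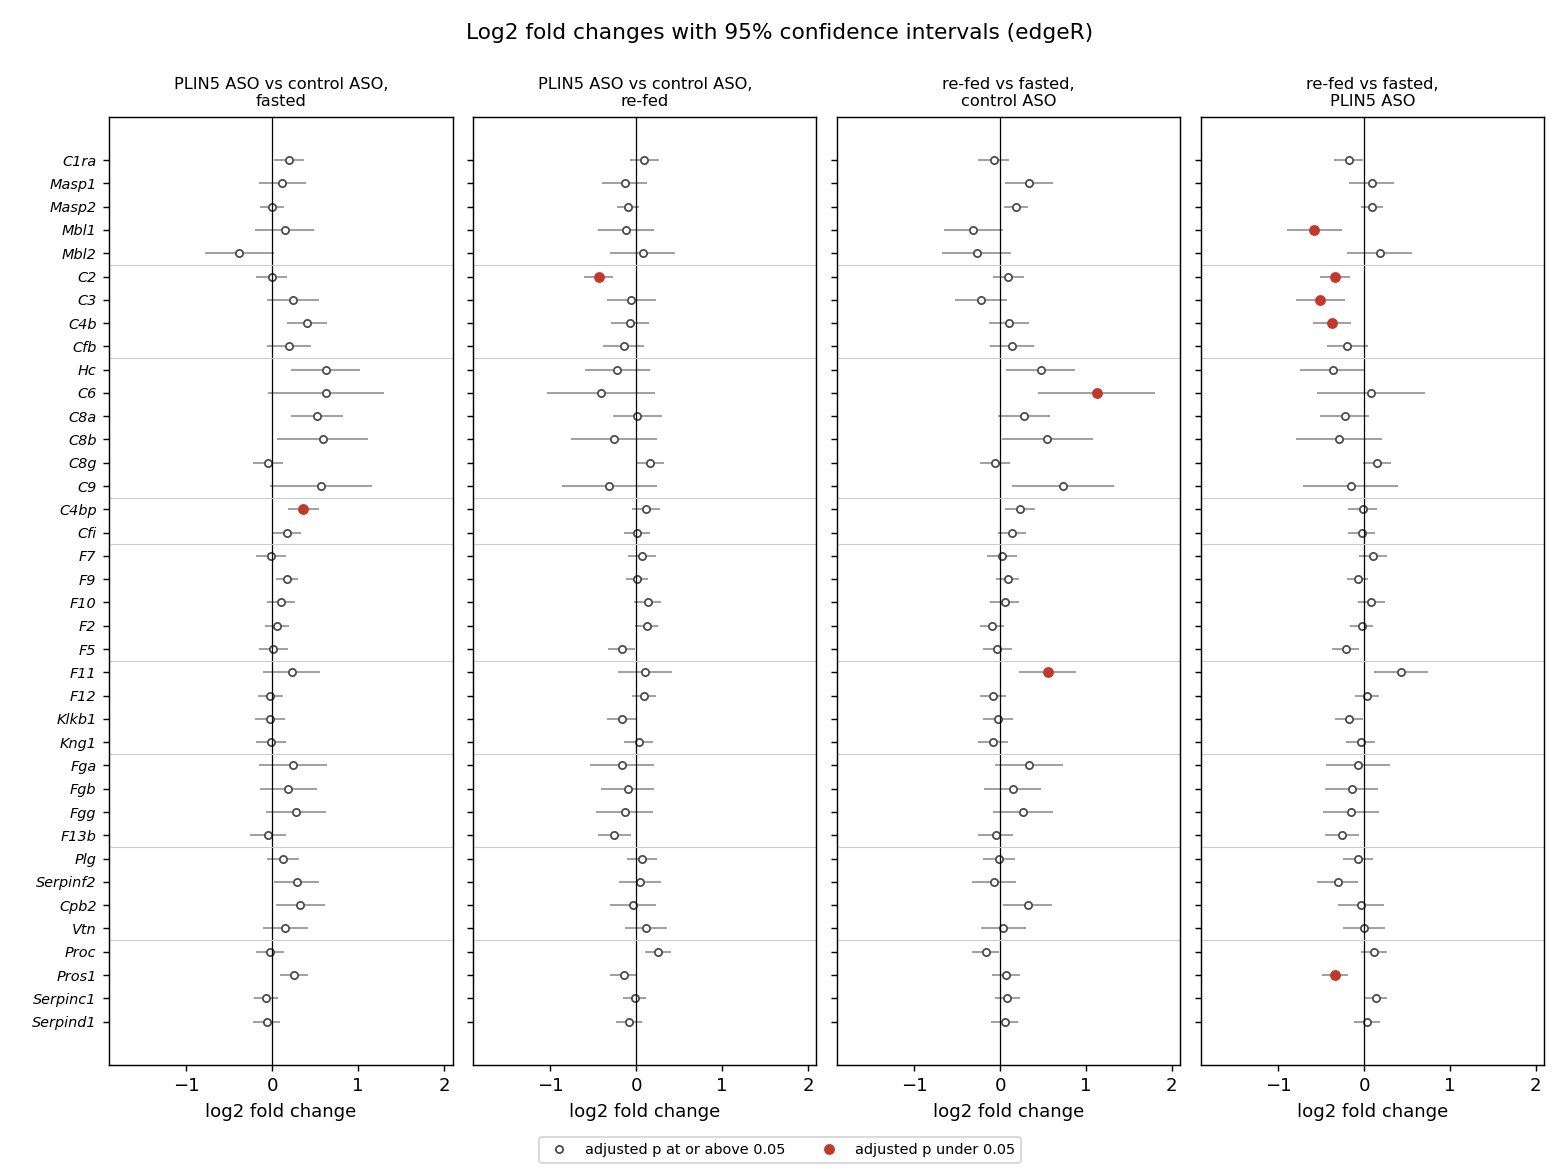
Log2 fold changes of the 38 genes (rows, grouped by role) with 95% confidence intervals in the 4 comparisons, from edgeR; filled red points have an adjusted p under 0.05. The 9 red points are C4bp in the first panel, C2 in the second, C6 and F11 in the third, and Mbl1, C2, C3, C4b and Pros1 in the fourth.

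C2 was the 1 gene of 38 that changed with PLIN5 ASO in re-fed liver, and it was lower. Among all genes 1.38% were called, 0.812% as higher and 0.564% as lower. C2 held 87.5, 97.3, 93.8, 84.1 and 88.6 CPM in re-fed PLIN5 ASO 1 to 5, against 111, 112, 134, 114 and 141 CPM in re-fed control ASO 1 to 5. Every PLIN5 ASO library was below every control library. C2 fell to 90.3 ± 5.26 CPM with PLIN5 ASO (SD, n = 5), against 122 ± 14.2 CPM with control ASO (SD, n = 5). The log2 fold change was -0.44 with an SE of 0.082 and an adjusted p of 0.0166 (edgeR's quasi-likelihood test, 95% confidence interval -0.61 to -0.27). It passed in 19 of 19 fits that left out 1 library. Without the 4 clock-shifted libraries, of which re-fed control ASO 3 and 5 held the most C2, the log2 fold change was -0.31 (adjusted p = 0.0935), and the adjusted p was 0.118 when the fit held re-fed libraries alone. C2 ends 85 bases from Cfb on the same strand of chromosome 17 (34862604 to 34898265 for C2 and 34856374 to 34862518 for Cfb, GRCm38). Cfb did not pass (log2 fold change -0.14, SE 0.11, adjusted p = 0.517).

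Proc, the gene of the anticoagulant protein C, came next and was higher. It held 787, 959, 794, 739.9 and 762 CPM in re-fed PLIN5 ASO, against 681, 676, 702, 679 and 659.8 CPM in re-fed control ASO, without overlap (log2 fold change 0.25, SE 0.072, adjusted p = 0.0783). Without overlap 1 of 38 genes was higher, against 2.48% of all genes, and 1 lower, C2, against 1.74%. F13b, the carrier chain of the clot-linking factor XIII, held 195, 141, 217, 193 and 196 CPM in re-fed PLIN5 ASO, against 249, 213, 232, 223 and 206 CPM in re-fed control ASO (log2 fold change -0.25, SE 0.093, adjusted p = 0.153), and its groups overlapped. F5, the cofactor of the protease that makes thrombin, held 624, 465, 582, 551 and 609.7 CPM, against 690.3, 601, 668, 618 and 609.8 CPM (log2 fold change -0.17, SE 0.075, adjusted p = 0.223). Library 2 of re-fed PLIN5 ASO had the lowest F13b and F5 and the highest Proc of its group.

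Terminal pathway and fibrinogen genes gave wide intervals here. C6 had a log2 fold change of -0.41 with a 95% confidence interval of -1.04 to 0.22, and C9 one of -0.32 with an interval of -0.87 to 0.24. The intervals of Fga (-0.54 to 0.21), Fgb (-0.41 to 0.21) and Fgg (-0.46 to 0.19) spanned 0 as well. Prothrombin, whose libraries differed little, was at 0.12 (-0.01 to 0.26), and antithrombin at -0.02 (-0.15 to 0.11). The median over the 38 genes was -0.05, against -0.01 over all genes, with 17 of 38 above 0, against 48.6% of all genes. Without the clock-shifted libraries the median was 0.105. Hepatocyte markers summed to 122700 to 169700 CPM in re-fed PLIN5 ASO, against 99840 to 127900 CPM in re-fed control ASO, with 8 of 10 above 0 and 1, the transthyretin gene Ttr, called higher. Kupffer cell markers summed to 131.2 to 264.4 CPM, against 147.2 to 232 CPM, with 0 of 12 called (0 at an unadjusted p under 0.05). Of 10 liver endothelial markers 8 were below 0, 3 were lower at an unadjusted p under 0.05 and 1, Kdr, was called lower (log2 fold change -1.06, SE 0.24, adjusted p = 0.0348, kept in 13 of 19 fits without 1 library), with sums of 104.9 to 156.4 CPM in re-fed PLIN5 ASO, against 104.9 to 192 CPM in re-fed control ASO. Their part in the values of the 38 genes was not tested.

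**Figure D5:**
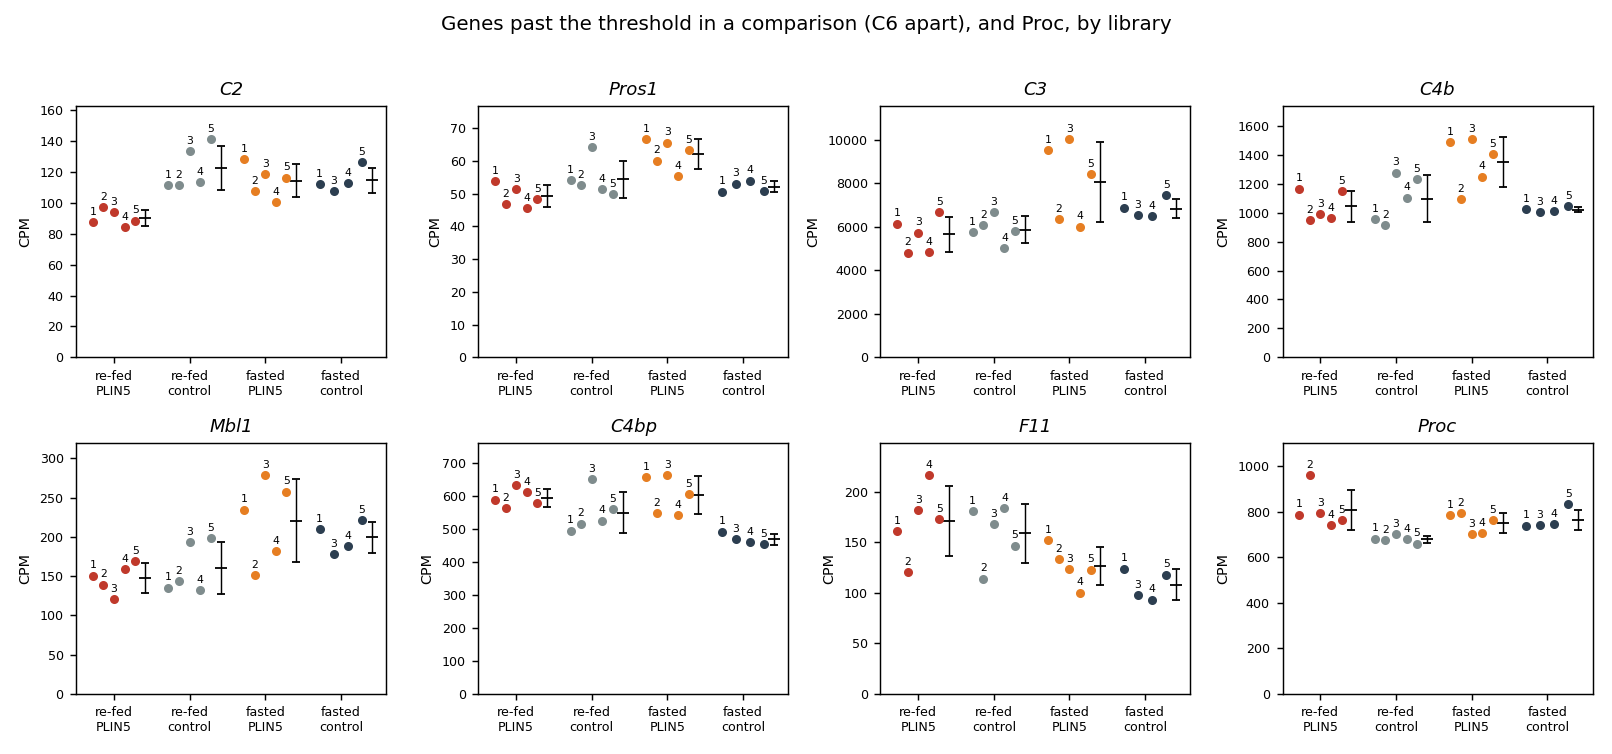
CPM (vertical axes, from 0) of 7 genes that passed the threshold in a comparison, and of Proc, in each library, with replicate numbers; the bar to the right of each group is the mean with its SD (n = 5, and n = 4 in fasted control ASO). The 5 re-fed PLIN5 ASO libraries of C2 lie between 84.1 and 97.3 CPM, below all 14 others.

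Re-feeding under control ASO gave 2 changed genes of 38, F11 and C6, both higher. Among all genes 13.2% were called, 6.42% as higher and 6.82% as lower, so that 2 of 38 higher is near the background and 0 of 38 lower is under it. F11, the gene of the contact factor XI, held 181, 114, 168, 184 and 147 CPM in re-fed control ASO, against 124, 97.5, 93.1 and 118 CPM in fasted control ASO 1, 3, 4 and 5. All but re-fed library 2 were above every fasted library. F11 rose to 159 ± 29 CPM in re-fed liver (SD, n = 5), against 108 ± 15.1 CPM in fasted liver (SD, n = 4). The log2 fold change was 0.55 with an SE of 0.16 and an adjusted p of 0.0277 (edgeR's quasi-likelihood test, 95% confidence interval 0.22 to 0.89). C6 rose to 429.7 ± 201 CPM, against 197 ± 49.2 CPM (log2 fold change 1.12, SE 0.33, adjusted p = 0.0284, interval 0.44 to 1.81), with re-fed libraries 3 and 5 far above the other 3. Both calls were lost with fasted control ASO 3 and 4 as 1 sample (adjusted p = 0.0914 for F11 and 0.0905 for C6). Without the clock-shifted libraries the log2 fold change was 0.56 for F11 (adjusted p = 0.0829) and 0.54 for C6 (adjusted p = 0.24), and the 1 gene of 38 that passed was Mbl1, which was lower. Of the 38 genes 0 passed without fasted control ASO 3 or 4 or re-fed control ASO 3, 1 passed without fasted control ASO 1 (F11), re-fed control ASO 1 (C6) or re-fed control ASO 5 (F11), and 3 passed without re-fed PLIN5 ASO 2.

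The groups did not overlap for 4 genes. Masp2, the lectin route protease that cleaves C4 and C2, held 283, 287, 294, 271 and 285 CPM in re-fed control ASO, against 239, 253, 239.8 and 271 CPM in fasted control ASO (log2 fold change 0.18, SE 0.066, adjusted p = 0.0765). Masp1 lay apart as well (0.34, SE 0.13, adjusted p = 0.0962). C4bp held 496, 517, 652, 526 and 560.3 CPM, against 493, 471, 461 and 454 CPM (0.23, SE 0.085, adjusted p = 0.0793). Proc held 681, 676, 702, 679 and 659.8 CPM in re-fed liver, against 738, 741, 744 and 832 CPM in fasted liver (-0.17, SE 0.076, adjusted p = 0.15), the 1 gene of the 4 that was lower. None of these 4 passed the threshold. Non-overlap held for 7.15% of all genes in the upward and 9.12% in the downward direction, so 3 and 1 of 38 were near or under those shares. C9 was at 0.73, SE 0.28, adjusted p = 0.0951, Hc at 0.47, SE 0.19, adjusted p = 0.109 and C8b at 0.55, SE 0.25, adjusted p = 0.16, with re-fed control ASO 3 and 5 the highest libraries of each. C3 (-0.22, SE 0.14, adjusted p = 0.332) and Mbl1 (-0.31, SE 0.16, adjusted p = 0.213) were on the negative side. The median over the 38 genes was 0.07, against 0.03 over all genes, and without the clock-shifted libraries it was -0.001. Kupffer cell markers, 12 of 12 above 0 and 0 called (1 at an unadjusted p under 0.05), summed to 147.2 to 232 CPM in re-fed control ASO, against 150.6 to 180.7 CPM in fasted control ASO, and their part was not tested.

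Re-feeding under PLIN5 ASO gave 5 changed genes of 38, all lower: Pros1, C2, C3, Mbl1 and C4b. Among all genes 8.64% were called, 4.5% as higher and 4.14% as lower, so that 5 of 38 lower is above the background and 0 of 38 higher is under it. Of the 5, 4 are complement genes, and 3 of those are the convertase components C2, C3 and C4b of the classical route. Pros1 held 53.7, 46.7, 51.4, 45.7 and 48.2 CPM in re-fed PLIN5 ASO 1 to 5, against 66.7, 60, 65.5, 55.2 and 63.3 CPM in fasted PLIN5 ASO 1 to 5. C2 held 87.5, 97.3, 93.8, 84.1 and 88.6 CPM in re-fed liver, against 128, 108, 118, 100.3 and 116 CPM in fasted liver. Neither gene overlapped between the groups, and these were the 2 of 38 genes lower without overlap, against 3.63% of all genes (0 were higher, against 3.94%). Pros1 fell to 49.1 ± 3.36 CPM, against 62.2 ± 4.63 CPM (SD, n = 5 each). The log2 fold change was -0.34 with an SE of 0.074 and an adjusted p of 0.00681 (edgeR's quasi-likelihood test, 95% confidence interval -0.49 to -0.19). C2 fell to 90.3 ± 5.26 CPM, against 114 ± 10.7 CPM (log2 fold change -0.34, SE 0.082, adjusted p = 0.014, interval -0.51 to -0.17). Both passed in each of 32 alternative fits, those without 1 library and without the clock-shifted libraries included.

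The other 3 rested more on single libraries. C3 held 6147, 4818, 5739, 4845 and 6692 CPM in re-fed PLIN5 ASO, against 9527, 6352, 10037, 6009 and 8407 CPM in fasted PLIN5 ASO, with fasted libraries 1, 3 and 5 the highest (log2 fold change -0.51, SE 0.14, adjusted p = 0.0235). Mbl1, the gene of mannose-binding lectin A, held 150.4, 139, 120.5, 159 and 169 CPM, against 235, 151, 278, 182 and 257 CPM (-0.58, SE 0.16, adjusted p = 0.0251). C4b held 1166, 947, 992, 962 and 1148 CPM, against 1488, 1095, 1509, 1248 and 1405 CPM (-0.37, SE 0.11, adjusted p = 0.0333). The groups overlapped for all 3. They passed in 14 of 19, 14 of 19 and 13 of 19 fits that left out 1 library. Each was lost without fasted PLIN5 ASO 1, 3 or 5 (adjusted p of 0.0509 to 0.0793), where 2 of 38 genes passed. Re-fed PLIN5 ASO 2, 3 and 4 also weighed on them, and 3 of 38 genes passed without each of these. Without fasted PLIN5 ASO 4, in contrast, 7 passed. With the clock-shifted libraries left out, C3 (adjusted p = 0.137), Mbl1 (0.102) and C4b (0.101) did not pass.

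Of the remaining genes F11 had the largest positive value, 0.43, SE 0.15, adjusted p = 0.0783. It held 161, 121, 182, 216 and 173 CPM in re-fed PLIN5 ASO, against 152, 134, 123, 100.2 and 123 CPM in fasted PLIN5 ASO, and the groups overlapped. F5 (-0.22, SE 0.075, adjusted p = 0.0781), F13b (-0.26, SE 0.093, adjusted p = 0.0932) and Serpinf2 (-0.31, SE 0.12, adjusted p = 0.108) were negative. C6 was at 0.08 with an interval of -0.55 to 0.71, and vitronectin had one of -0.25 to 0.24. The median was -0.07, against 0.00 over all genes, with 12 of 38 above 0, against 50.1% of all genes. All 4 members of fibrin formation and all 4 of the fibrinolysis group were below 0, some barely (-0.003 for Vtn and -0.04 for Cpb2), and none of those 8 passed. Kupffer cell markers summed to 131.2 to 264.4 CPM in re-fed PLIN5 ASO, against 172 to 447.7 CPM in fasted PLIN5 ASO, with 11 of 12 below 0 and 0 called (1 at an unadjusted p under 0.05). The part of those cells was not tested.

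Several members had small values in all 4 comparisons and passed in none. The procoagulant proteases were among them: F7, the gene of factor VII, lay between -0.02 and 0.10 on the log2 scale, F10, the gene of factor X, between 0.05 and 0.13, and F2 between -0.10 and 0.12. In re-fed liver F2 averaged 2057 ± 106 CPM with PLIN5 ASO and 1887 ± 106 CPM with control ASO (SD, n = 5 each). In fasted liver it averaged 2100.1 ± 104 CPM with PLIN5 ASO (SD, n = 5) and 2022 ± 37.9 CPM with control ASO (SD, n = 4). Of the contact system, F12 lay between -0.08 and 0.10 and Kng1 between -0.08 and 0.03, while Klkb1, the gene of plasma prekallikrein, had -0.18 under PLIN5 ASO with re-feeding (adjusted p = 0.172). The thrombin inhibitors Serpinc1 and Serpind1 (heparin cofactor II) lay between -0.07 and 0.14 and between -0.09 and 0.05. Plg stayed between -0.07 and 0.12. C1ra, the gene of the C1r protease that opens the classical route, reached 0.20 in fasted liver with PLIN5 ASO (adjusted p = 0.28) and -0.18 with re-feeding under PLIN5 ASO (adjusted p = 0.182). Its near-identical copy C1rb may share reads. Cfi, the gene of the factor I protease that inactivates C3b and C4b, lay between -0.03 and 0.18.

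The difference between the ASO effects in re-fed and in fasted liver (the interaction) was tested directly, since the comparisons above share libraries. It passed for 0 of 38 genes in edgeR, with 10 at an unadjusted p under 0.05 (9 negative and 1 positive). In edgeR 0.0226% of all genes were called (0.015% as positive and 0.00752% as negative) and 15% had an unadjusted p under 0.05. DESeq2 called 1 of the 38, Pros1, and 95 of all genes, against 3 of all genes in edgeR. The smallest adjusted p was that of Pros1, with an interaction of -0.40, SE 0.11, adjusted p = 0.176 on the log2 scale. C2 followed with -0.43, SE 0.12, adjusted p = 0.178. The terminal pathway had the largest sizes, -1.04 for C6, -0.88 for C9, -0.84 for C8b and -0.84 for Hc, with adjusted p of 0.209 to 0.296. Proc was the positive one of the 10 (0.28, SE 0.11, adjusted p = 0.261). In all, 9 of 38 genes had a positive interaction, against 47.8% of all genes. In edgeR the ASO effect is thus not shown to differ between the feeding states for any of the 38, and a p above the threshold does not show that it was the same.

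Beside the 38, 64 other genes of the same systems were listed, of which 55 passed the filter and were tested. In fasted liver 3 of 55 were higher with PLIN5 ASO and 1 lower, against 0.602% and 0.572% of all genes. C1qa (0.89, SE 0.21, adjusted p = 0.0424) and C1qb (1.03, SE 0.24, adjusted p = 0.0345), chains of the classical starter protein C1q that macrophages make, rose. Fgl1, a fibrinogen-like protein of hepatocytes, held 1079, 222, 1211, 373 and 752 CPM, against 222, 175, 174 and 232 CPM (1.86, SE 0.38, adjusted p = 0.0248). These 3 calls were lost without the clock-shifted libraries, with fasted control ASO 3 and 4 as 1 sample, without fasted PLIN5 ASO 3 or 5 and without any 1 fasted control library, and were kept in 13 (C1qa), 18 (C1qb) and 22 (Fgl1) of 32 alternatives. C1qa and C1qb were also lost without fasted PLIN5 ASO 4, and C1qa without re-fed PLIN5 ASO 1, 3 or 4 or re-fed control ASO 1. In re-fed liver 0 of 55 passed in edgeR, against 1.38% of all genes, with 8 at an unadjusted p under 0.05, against 19%.

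With re-feeding under control ASO 7 of 55 were higher and 4 lower, against 6.42% and 6.82% of all genes. Ggcx, the carboxylase that activates the vitamin K-dependent clotting factors, rose (0.66, SE 0.14, adjusted p = 0.00347), as did Lman1, a cargo receptor that carries factors V and VIII out of the endoplasmic reticulum (0.50, SE 0.097, adjusted p = 0.00233). Vkorc1, which recycles vitamin K for Ggcx, fell (-0.29, SE 0.084, adjusted p = 0.028). Tfpi2, a protease inhibitor, rose (0.87, SE 0.16, adjusted p = 0.00158), and Hrg, a plasma glycoprotein that binds plasminogen and fibrinogen, fell (-0.34, SE 0.072, adjusted p = 0.00454). C4a (1.91, SE 0.45, adjusted p = 0.00823), Cfhr2 (0.40, SE 0.12, adjusted p = 0.0387), Serpine2 (1.19, SE 0.39, adjusted p = 0.0477) and Serpina5 (adjusted p = 0.0448) rose and the complement inhibitor Cd59a fell (-0.27, SE 0.080, adjusted p = 0.0327). Serpina5 is barely expressed, with 0.19 to 0.617 CPM over re-fed control ASO libraries, and had 0 counts in 3 of the 4 fasted control libraries. The calls of Cfhr2, Serpine2, Serpina5 and Cd59a were lost both without the clock-shifted libraries and with fasted control ASO 3 and 4 as 1 sample, and that of Vkorc1 in the second case. Under PLIN5 ASO 4 of 55 were higher and 4 lower, against 4.5% and 4.14% of all genes. Lman1 (0.47, SE 0.090, adjusted p = 0.00276), Ggcx (0.41, SE 0.13, adjusted p = 0.0465), F3, the tissue factor gene (0.81, SE 0.23, adjusted p = 0.0304), and Hgfac (0.30, SE 0.088, adjusted p = 0.0376) rose. Fgl1 (-1.51, SE 0.34, adjusted p = 0.00932), Serpina10 (-0.39, SE 0.11, adjusted p = 0.0402) and Hrg (-0.26, SE 0.068, adjusted p = 0.0211) fell. The calls of F3, Hgfac and Serpina10 were lost without the clock-shifted libraries, and those of Ggcx and Serpina10 with fasted control ASO 3 and 4 as 1 sample. Among the genes named here, calls that held in every fit without 1 library were those of C4a, Tfpi2, Hrg, Ggcx and Lman1 under control ASO and of Fgl1 and Lman1 under PLIN5 ASO.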

How the data were processed

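The deposited read counts per gene and the deposited FPKM values of 19 liver libraries were used as the authors made them. RNA was extracted with RNeasy kits, per the labels' protocols. Subread, edgeR, HISAT2 2.0.2, FastQC and Cuffdiff 2.2.1 and the builds GRCm38 and mm10 appear, with no role or order, in the submitters' processing notes. For the annotation, the strand setting and reads with several matches the sources used here give no setting. Counts were tested in R 4.3.3 with edgeR 4.0.16: TMM scaling, filterByExpr with a minimum count of 10, 1 fit of all 19 libraries over 4 groups, and two-sided quasi-likelihood F tests with Benjamini-Hochberg adjustment over 13293 genes and a threshold of 0.05. CPM are TMM-scaled. Alternatives were other scaling and filters, DESeq2 1.42.0, limma 3.58.1 on log2 FPKM with a pseudocount of 1 or 0.1, a replicate block, the compared groups alone, fits without the clock-shifted libraries and fits without 1 library. Members and lists were chosen with earlier results of these data known. By rule all members are named by role, and values by library are given for those called in any of the 5 edgeR tests and for the 4 of smallest unadjusted p in each of the 4 pairwise comparisons. Outside that rule, the text also gives values by library for Fgb, C9 and Hc, to show the spread between libraries. Some results for other genes are not reported here. Steps were tested on simulated data. Columns left unused numbered 0, and 27 gene symbols had become dates in the file. Counting limits the precision of low genes. Genes with near-identical copies (C4b and C4a, C1ra and C1rb, Kng1 and Kng2) may share reads.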

Additional observations from a re-analysis of the deposited data

Results flagged for a closer look

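In 6 of 152 combinations of gene and group, 1 library stood far from the others of its group, by the gap to its nearest neighbour as a share of the group's range (Dixon's 95% limit, which chance passes in about 1 of 20 groups). Proc held 959 CPM in re-fed PLIN5 ASO 2, against 740 to 794 CPM in the other 4 libraries of that group. F7, the gene of the factor VII protease that starts clotting with tissue factor, held 111 CPM in re-fed PLIN5 ASO 3, against 93.5 to 98.0 CPM in the other 4. Fasted control ASO 5 was set apart for 3 genes: it held 655 CPM of C9 (the other 3 libraries 530 to 551 CPM), 832 CPM of Proc (the others 738 to 744 CPM) and 238 CPM of F13b (the others 231 to 232 CPM). Fasted control ASO 1 held 815 CPM of Serpinf2, against 688 to 698 CPM in the other 3.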

How the results depend on the processing

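Of 84 gene results under 2680 alternatives, 2188 kept direction and side of the threshold, 469 lost the call, 23 gained one and 0 turned direction. The number of the 38 genes called, 1 for PLIN5 ASO in fasted liver, was 0 with total counts as library size, without the filter on low counts, in a fit of the compared groups only, in limma on unfiltered log2(FPKM + 1), without the clock-shifted libraries and with fasted control ASO 3 and 4 as 1 sample, and 4 in DESeq2 and with a replicate block (C4b, Hc, C8a and C4bp). Of all genes 156 were called in the main fit, 432 in DESeq2 and 253 with the replicate block. The settings that gave 0 called 33 to 185 of all genes. For PLIN5 ASO in re-fed liver (1) the number of the 38 was 2 in DESeq2 (C2 and Proc), and 0 in a fit of the compared groups only and without the clock-shifted libraries. Of all genes 183 were called in the main fit, 612 in DESeq2, and 4 and 45 in the settings that gave 0. For re-feeding under control ASO (2) the number of the 38 was 4 with total counts and in limma with either pseudocount, 5 in DESeq2, 7 with the replicate block, 1 without the clock-shifted libraries, and 0 in limma without a filter and with fasted control ASO 3 and 4 as 1 sample. Of all genes the main fit called 1759, total counts 1848, limma 1809 and 1810, DESeq2 2250 and the replicate block 2127. It was 1167 without the clock-shifted libraries, 1271 in limma without a filter and 1139 with fasted control ASO 3 and 4 as 1 sample. For re-feeding under PLIN5 ASO (5) the number of the 38 was 3 in a fit of the compared groups only, and 2 in limma without a filter and without the clock-shifted libraries. Of all genes the main fit called 1148, against 793, 767 and 1048 in those fits, in the same order. The interaction (0) had 1 in DESeq2, which called 95 of all genes, against 3 in the main fit. Leaving out 1 library gave 0 to 2, 1 to 1, 0 to 3, 2 to 7 and 0 to 0 calls among the 38, in the order of the comparisons above. The cause of these shifts was not tested. Same-numbered deviations correlated over 0.1 in 10 of 27 pairs (-0.212 to 0.375, median 0.058). Differently numbered pairs ran from -0.403 (fasted PLIN5 ASO 4 with re-fed control ASO 5) to 0.441 (fasted PLIN5 ASO 3 with re-fed control ASO 5). The highest value was thus not that of a same-numbered pair. Whether replicate numbers pair the libraries was not tested. Total-count scaling moved the median of all genes to between -0.083 and 0.072 (log2).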

Other observations

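Of 11 other acute phase genes of the liver, 7 were higher with PLIN5 ASO in fasted liver, against 0.602% of all genes, and 0 were called lower. Hamp, the gene of the iron hormone hepcidin, was the 1 with a negative log2 fold change (-0.83). It was lower without overlap and had an unadjusted p under 0.05, but did not pass. Saa1 had a log2 fold change of 4.80 (adjusted p = 0.0373), Saa2 one of 5.77 (0.0258) and Lcn2, the gene of the iron-binding protein lipocalin 2, one of 5.02 (0.00707). Hp, the gene of the haemoglobin-binding haptoglobin, had the smaller value 0.81 (0.0434), near that of Itih4 at 0.81 (0.0345) and Serpina3n at 0.74 (0.0241), and Apcs, the gene of serum amyloid P, had 1.87 (0.0235). Lcn2 held 332, 10.1, 539.5, 25.5 and 222 CPM in fasted PLIN5 ASO 1 to 5, against 6.54, 7.03, 6.12 and 8.25 CPM in fasted control ASO 1, 3, 4 and 5. Libraries 1, 3 and 5 carried most of it. With fasted control ASO 3 and 4 as 1 sample, or without any 1 of the 4 fasted control libraries, the calls of Saa1, Saa2, Hp, Apcs, Serpina3n and Itih4 were lost and that of Lcn2 was kept. Without the clock-shifted libraries those of Saa1, Hp, Apcs, Serpina3n and Itih4 were lost. Without fasted PLIN5 ASO 3 all of the 7 but Lcn2 and Apcs were lost, without fasted PLIN5 ASO 5 Saa1, Saa2, Hp and Itih4, and without fasted PLIN5 ASO 1 Saa1, Hp and Itih4. The call of Hp was kept in 14 of 32 alternatives. Under PLIN5 ASO 8 of the 11 were lower in re-fed than in fasted liver, against 4.14% of all genes, and Hamp was higher (1.05, adjusted p = 0.0269). Of the 8, Saa1, Saa2, Saa3, Lcn2 and Orm2 were called in every fit without 1 library. Apcs, Serpina3n and Itih4 were lost without fasted PLIN5 ASO 1 or 3, without re-fed PLIN5 ASO 2 or 4 and without the clock-shifted libraries, and Hamp was kept in 15 of 19 fits without 1 library.

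Among 12 genes of receptors and transcription factors of the acute phase and of hepatocytes, Il6ra, the interleukin-6 receptor gene, was higher with PLIN5 ASO in fasted liver (log2 fold change 0.97, adjusted p = 0.0345). This call was kept in 21 of 32 alternatives. It was lost with fasted control ASO 3 and 4 as 1 sample and without fasted PLIN5 ASO 2, 3, 4 or 5 or fasted control ASO 1, 4 or 5 (adjusted p up to 0.142).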
